A study of Caenorhabditis elegans with 3 samples.

Results

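The genes described here build the meiotic chromosome axis and the synaptonemal complex of *Caenorhabditis elegans*, or start pairing and recombination along it. They are *him-3*, *htp-1*, *htp-3*, *rec-8*, *syp-1*, *syp-2*, *syp-3*, *him-8*, *him-5* and *spo-11*, chosen by their gene symbol in the platform annotation, and all 10 were measured among the 19292 genes tested. Each was read by 1 feature of the array, and each feature had a value on all 3 arrays. RNA of late L4 hermaphrodites, close to the molt that ends larval life, was hybridised in channel 2 of 3 two-colour arrays, 1 for each of preps 1, 2 and 3, and a wild-type mixed reference RNA in channel 1. The labels give no strain or genotype for the late L4 animals and do not say which stages the reference mixes or whether each prep was grown as a culture of its own. The p-values therefore rest on the spread between preps, which may be technical. The array titles carry dates that differ between the preps, and a date cannot be told apart from its prep. Late L4 RNA was in channel 2 on all 3 arrays and the dye of each channel is not given, so an effect of dye or channel cannot be told apart from late L4. The number of arrays also limits the precision.

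In the nematode germ line, chromosomes entering meiosis are organised along an axis of cohesin and HORMA domain proteins. Partners find each other through pairing centers near one chromosome end, and the synaptonemal complex then zips the aligned axes together along their length. Programmed DNA breaks, made by the SPO-11 enzyme, are repaired from the partner chromosome, and some of them become crossovers. The *him* genes are named for the high incidence of males that follows when the X chromosome is mis-segregated. In late L4 hermaphrodites the gonad holds dividing germ cells, cells in meiotic prophase and cells forming sperm.

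Values below are log2 ratios of late L4 over the mixed reference, so a positive value stands for a higher transcript level in late L4. This direction was inferred from the wording of the sample descriptions and is likely, not certain, and all signs would turn together if it were the other way. A ratio compares the RNAs for 1 gene and says nothing of the level of one gene against another. In RNA of whole animals, fewer germ cells and less RNA per cell cannot be told apart. A gene was called higher or lower at an adjusted p under 0.05 in limma's moderated test of the 3 ratios against 0, fitted and adjusted over all 19292 genes.

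Of the 10 genes, 1 was higher in late L4 than in the reference, the synaptonemal complex gene *syp-1*, and 1 was lower, the break-promoting gene *him-5*. The other 8 did not pass. Among all genes tested 12.0% were called higher, 10.8% lower and 22.9% in either direction, so 2 called genes of 10 (20.0%) is a share near that of all genes. The median of the 10 mean log2 ratios was -0.12, against -0.03 for all genes. The 10 means ran from -1.0 to 1.18. Of the 10, 8 (80.0%) kept 1 sign over the 3 arrays, 3 above 0 and 5 below, against 51.2% of all genes. On each array 4 of the 10 had a ratio above 0 and 6 below.

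**Figure D1:**
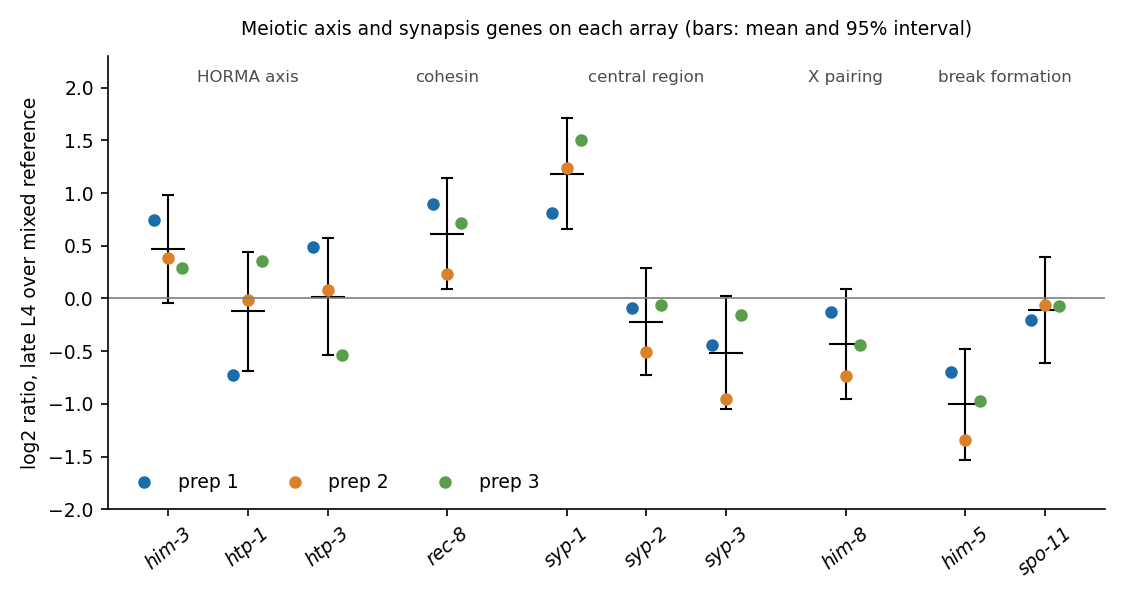
Log2 ratio of late L4 over mixed reference (vertical axis) for the 10 genes, grouped by role; coloured points are the 3 preps, the horizontal bar is their mean and the whiskers are limma's 95% interval. All points of *syp-1* lie above 0 and all points of *him-5* below, while those of *htp-1* and *htp-3* fall on both sides.

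The HORMA domain proteins HIM-3, HTP-1 and HTP-3 form the core of the axis. HTP-3 recruits the others, and HTP-1 also keeps the synaptonemal complex from loading between chromosomes that have not paired. On preps 1, 2 and 3, in this order as in all such lists below, the log2 ratio of *him-3* was 0.74, 0.38 and 0.29. All 3 were above 0, but the mean of 0.47 ± 0.24 (SD, n = 3; limma, adjusted p = 0.191) did not pass, and its 95% interval ran from -0.04 to 0.98. *htp-1* had -0.73, -0.01 and 0.36, and *htp-3* had 0.49, 0.08 and -0.54. These genes ran in opposite order over the preps: *htp-1* was lowest on prep 1 and highest on prep 3, and *htp-3* the reverse. The mean of *htp-1* was -0.12 ± 0.55 (adjusted p = 0.8) and that of *htp-3* was 0.01 ± 0.52 (adjusted p = 0.984, limma). Among all genes, the SD of *htp-1* over the preps stood at the 76.8 percentile and that of *htp-3* at the 72.9 percentile, the highest of the 10 genes, and either mean changed sign when 1 prep was left out. The difference *htp-1* minus *htp-3* came to -1.22, -0.09 and 0.90 over the preps. The close paralog of *htp-1*, *htp-2*, was not analysed here, and since the probe type is not given, the *htp-1* feature may also read *htp-2* transcripts.

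*rec-8* encodes the kleisin, the closing subunit, of the cohesin ring that holds sister chromatids together in meiosis. Its log2 ratios were 0.90, 0.23 and 0.72. Prep 2 was the lowest, and none of the preps was below 0. With a mean of 0.61 ± 0.35 (SD, n = 3), or 1.53-fold, it had an unadjusted p of 0.0249 in limma and did not pass after adjustment over all genes (adjusted p = 0.0899, and from 0.0693 to 0.363 over the alternative settings). Its 95% interval ran from 0.09 to 1.14, so a 2-fold higher level was within it. Another meiotic kleisin gene, *coh-3*, had ratios of 0.15, -0.13 and 0.13. *rec-8* exceeded it on all 3 arrays, by 0.56 ± 0.20 log2 units. With 3 arrays, an exact two-sided sign-flip permutation test of such a difference cannot give a p under 0.25, so differences between genes are given without a test. The other cohesin genes, the subunit genes *scc-3* and *him-1* and *wapl-1*, which encodes a factor that removes cohesin, had means of 0.02, 0.26 and 0.01. *wapl-1* was the least even, with -0.09, 0.50 and -0.37.

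SYP-1, SYP-2 and SYP-3 are coiled-coil proteins of the central region, the part of the synaptonemal complex that spans the gap between the paired axes, and each is needed for the others to assemble there. Their measured ratios differed on every array, though the differences between the genes were not tested. *syp-1* had log2 ratios of 0.81, 1.24 and 1.50, all above every ratio of *syp-2* (-0.09, -0.51 and -0.06) and of *syp-3* (-0.44, -0.95 and -0.16). *syp-1* was thus 2.27-fold higher in late L4 than in the reference (mean 1.18 ± 0.35, SD, n = 3; limma, adjusted p = 0.00232), at the 93.1 percentile of all genes, with a 95% interval from 0.66 to 1.71. Its mean was 1.02 to 1.37 when 1 prep was left out, and it passed each time (adjusted p = 0.0017, 0.00537 and 0.0351 without preps 1, 2 and 3).

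Neither *syp-2* nor *syp-3* passed. *syp-2* had a mean of -0.22 ± 0.25 (limma, adjusted p = 0.584; 95% interval from -0.73 to 0.29) and *syp-3* one of -0.52 ± 0.40 (adjusted p = 0.165; interval from -1.05 to 0.02). Both were lowest on prep 2, the array on which *syp-1* was 1.24. Within arrays, *syp-1* stood above *syp-2* by 0.90, 1.75 and 1.56 log2 units on preps 1, 2 and 3, a mean of 1.40 ± 0.44 or 2.65-fold. It stood above *syp-3* by 1.25, 2.19 and 1.66, a mean of 1.70 ± 0.47 or 3.25-fold. *syp-2* was above *syp-3* on all 3 arrays, but by 0.30 ± 0.18 log2 units. A change in the direction, centring or scale of a whole array acts on all 3 genes alike and leaves the order of the *syp* genes within it as it is, or turned over as a whole.

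Other central region genes were also measured. *syp-6*, a later-described member, had ratios of 0.50, -0.04 and -0.13, and *syp-1* was above it by 0.31, 1.27 and 1.64 on preps 1, 2 and 3. The Skp1-related genes *skr-1* and *skr-2*, which encode ubiquitin ligase adaptors that are also found in the central region, lie next to each other on chromosome I. Ratios of *skr-1* were -1.04, -0.44 and -0.48 (mean -0.66 ± 0.34; limma, adjusted p = 0.0694) and those of *skr-2* were -0.38, -0.18 and 0.24. Whether these related genes share signal was not tested, and neither passed. *syp-4* and *syp-5* were not analysed here.

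**Figure D2:**
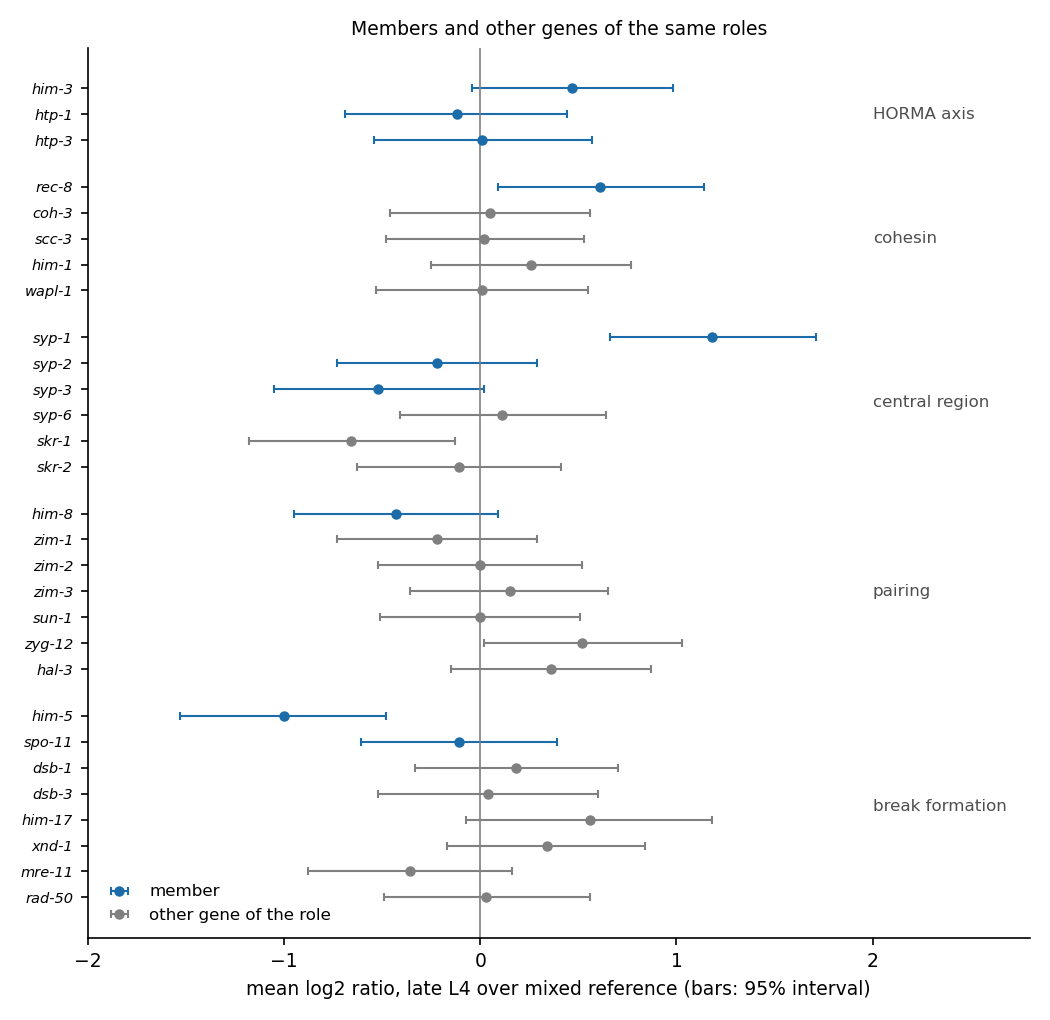
Mean log2 ratio of late L4 over mixed reference (horizontal axis) with limma's 95% interval (whiskers) for the 10 genes (blue) and 19 other measured genes of the same roles (grey). The intervals of *syp-1*, *him-5*, *rec-8*, *skr-1* and *zyg-12* leave out 0, and of these *syp-1* and *him-5* passed after adjustment over all genes.

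HIM-8 is a zinc finger protein that binds the pairing center of the X chromosome, and the related ZIM-1, ZIM-2 and ZIM-3 bind those of the autosomes. *him-8* had log2 ratios of -0.13, -0.74 and -0.44. None was above 0, prep 2 was the lowest, and the mean of -0.43 ± 0.30 (SD, n = 3; limma, adjusted p = 0.238; 95% interval from -0.95 to 0.09) did not pass. In the RefSeq gene table for assembly WBcel235, *zim-1*, *zim-2*, *zim-3* and *him-8* follow each other on chromosome IV with 0 protein-coding genes between them. Ratios of *zim-1* were -0.06, -0.42 and -0.18. *zim-2* had 0.21, -0.35 and 0.12, and *zim-3* had 0.28, 0.07 and 0.09. Each of these was lowest on prep 2, as *him-8* was, for *zim-3* by a small margin. The median of all genes was also lowest there, with 0.01, -0.10 and -0.06 on preps 1, 2 and 3. Whether these related genes share signal was not tested. *him-8* lay below the mean of its 3 neighbours by -0.27, -0.51 and -0.45 log2 units on preps 1, 2 and 3, a mean difference of -0.41 ± 0.12.

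Of the genes that link pairing centers to the nuclear envelope, *sun-1*, which encodes an inner membrane protein, had ratios of 0.23, -0.05 and -0.17. *zyg-12*, which encodes its outer membrane partner, had 0.57, 0.59 and 0.42, among the most even of the genes named here (mean 0.52 ± 0.09; limma, adjusted p = 0.134). *hal-3*, needed for pairing and synapsis, had 0.58, 0.37 and 0.14 (mean 0.36 ± 0.22; adjusted p = 0.327, limma). None of the 6 other pairing genes passed.

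SPO-11 is the topoisomerase-like enzyme that cuts the DNA, and HIM-5 promotes those breaks, above all on the X chromosome. Ratios of *him-5* were -0.70, -1.34 and -0.97, all below 0, and those of *spo-11* were -0.20, -0.06 and -0.07. Each value of *him-5* lay below all values of *spo-11*, with within-array differences of -0.51, -1.28 and -0.90 (mean -0.89 ± 0.39). *him-5* was 2.01-fold lower in late L4 than in the reference (mean -1.0 ± 0.32, SD, n = 3; limma, adjusted p = 0.0071), at the 6.06 percentile of all genes, with a 95% interval from -1.53 to -0.48. This call was lost without prep 2, where the mean was -0.83 (adjusted p = 0.0679), and kept when prep 1 (adjusted p = 0.00812) or prep 3 (adjusted p = 0.0388) was left out. *spo-11* had a mean of -0.11 ± 0.07 (adjusted p = 0.803, limma; interval from -0.61 to 0.39). It varied least of the 10 genes between arrays, with an SD at the 2.68 percentile of all genes.

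Of 6 other measured genes needed for break formation, 1 was above 0 on every array, 1 below on every array, and the other 4 had values on both sides of 0. *dsb-1* and *dsb-3*, which encode factors that act with SPO-11, had means of 0.18 ± 0.28 and 0.04 ± 0.53. *him-17*, which encodes a chromatin-associated protein, had 0.42, 1.45 and -0.20, the widest spread of these genes (mean 0.56 ± 0.84; limma, adjusted p = 0.208). *xnd-1*, which encodes a chromatin factor that affects crossover placement on the X, was the gene above 0 throughout, with 0.44, 0.15 and 0.42 (mean 0.34 ± 0.16; adjusted p = 0.359, limma). The break-processing gene *mre-11* was the one below 0 throughout, with -0.03, -0.57 and -0.48 (mean -0.36 ± 0.29; adjusted p = 0.339, limma). Its partner gene *rad-50* had 0.23, -0.35 and 0.22 (mean 0.03 ± 0.33).

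Across all these roles, limma called 0 of 19 other measured genes, of 30 listed, in either direction, and 2 of the 19 had an unadjusted p under 0.05, *zyg-12* above 0 and *skr-1* below. The called gene *cra-1*, also needed for assembly of the synaptonemal complex, was placed on another list, given below, and is not among the 19. The median of the 19 means was 0.04. For 16 of them the 95% interval lay within a 2-fold change in either direction, as it did for 6 of the 8 uncalled genes among the 10. For *rec-8* and *syp-3* it did not. Among all genes tested, 11645 of 14878 uncalled genes had such an interval, so these counts do not set the meiosis genes apart. A missed threshold does not show that the levels were alike.

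Ordered by mean ratio, the 10 genes ran *syp-1*, *rec-8*, *him-3*, *htp-3*, *spo-11*, *htp-1*, *syp-2*, *him-8*, *syp-3*, *him-5*. Of the 9 neighbouring pairs in this order, 3 had a mean difference above its SD over the arrays, and these 3 kept their order on every array: *him-3* above *htp-3* (0.46 ± 0.32), *syp-2* above *him-8* (0.21 ± 0.17) and *syp-3* above *him-5* (0.49 ± 0.29). In the other 6 pairs the mean difference was within its SD. The order was taken from these same arrays, so such counts describe it and do not test it. *syp-1* exceeded *rec-8* on 2 of the 3 arrays, by 0.57 ± 0.58. From end to end, *syp-1* exceeded *him-5* by 1.51, 2.58 and 2.47 log2 units on preps 1, 2 and 3, a mean of 2.19 ± 0.59. Prep 2 held the lowest value of 5 of the 10 genes, *rec-8*, *syp-2*, *syp-3*, *him-8* and *him-5*, and the highest value of *spo-11* alone. The medians of the 10 on preps 1, 2 and 3 were -0.11, -0.04 and -0.07, close to each other.

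**Figure D3:**
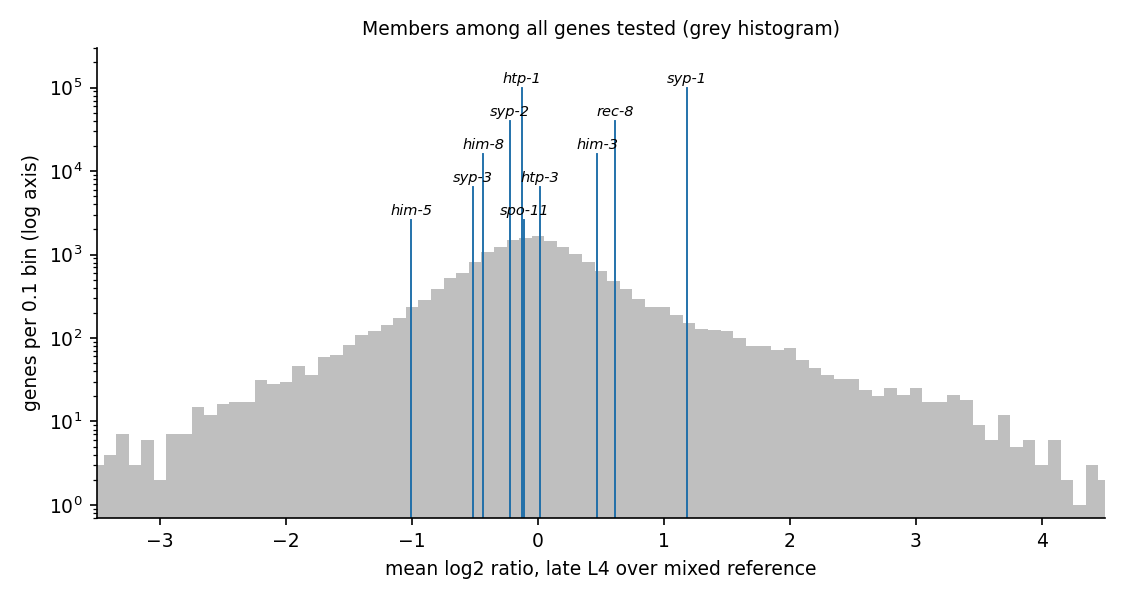
Number of genes (vertical log axis) by mean log2 ratio of late L4 over mixed reference (horizontal axis) for the genes tested within the range drawn, in grey, with the 10 genes as labelled blue lines whose heights only separate the labels. *syp-1* at 1.18 and *him-5* at -1.0 stand in the flanks and the other 8 lie between -0.52 and 0.61.

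A further list held genes of repair and crossover formation, with a few that act on the axis or in synapsis. Of 25 listed, 21 were measured, 1 was higher, 1 lower and 19 did not pass, with a median of 0.01. The higher gene was *cra-1*, which encodes a subunit of an N-terminal acetyltransferase needed for assembly of the synaptonemal complex. Its ratios of 1.40, 1.20 and 0.94 gave a 2.27-fold higher level (mean 1.18 ± 0.23, SD, n = 3; limma, adjusted p = 0.00195). The 3 values of *cra-1* overlapped those of *syp-1*, though *cra-1* was highest on prep 1 and *syp-1* on prep 3. The lower gene was *slx-1*, which encodes an endonuclease that resolves joined recombination intermediates. Its ratios of -1.52, -1.10 and -0.82 gave a 2.21-fold lower level (mean -1.15 ± 0.35; limma, adjusted p = 0.00296). Both calls held when any 1 prep was left out, with adjusted p from 0.00483 to 0.0141 for *cra-1* and from 0.00467 to 0.0299 for *slx-1*.

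Over the 3 lists, 50 of 65 genes of meiotic chromosome structure, pairing and recombination were measured, and limma called 2 higher and 2 lower (8.0% in all, against 22.9% of all genes). All 10 of the axis and synapsis genes were autosomal, on chromosomes I, IV and V, including *him-8* and *him-5*, whose products act mainly on the X. None of the 50 genes lay on the X (0 of 50), against 2275 of 15112 named genes (15.1%).

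**Figure D4:**
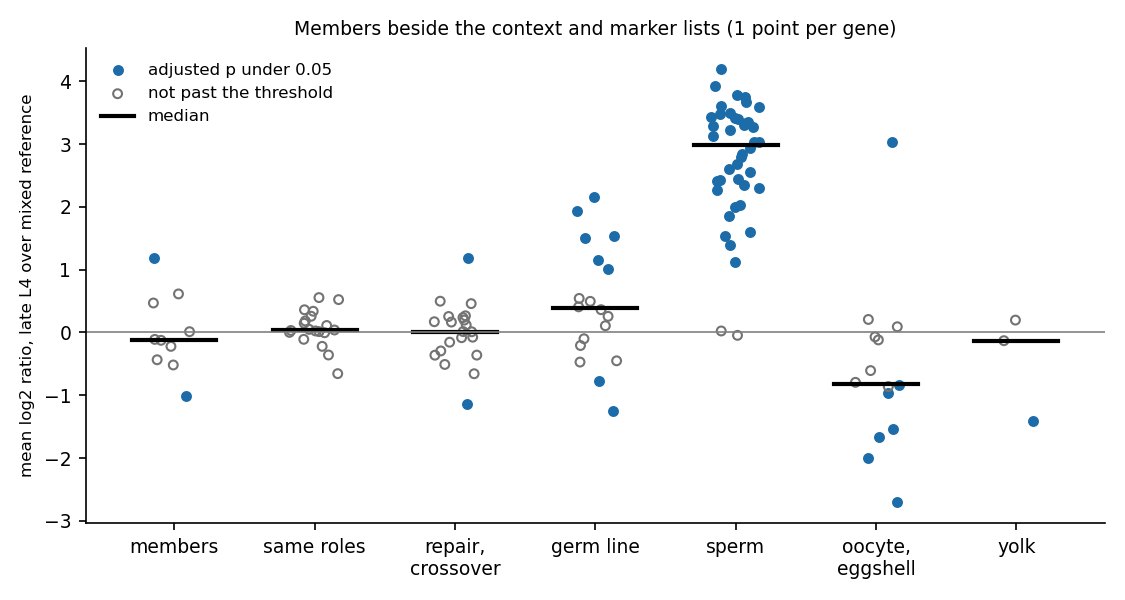
Mean log2 ratio of late L4 over mixed reference (vertical axis), 1 point per gene, for the 10 genes, the lists of related genes and the marker lists; filled points passed an adjusted p under 0.05 in limma and black bars are medians. The 3 meiosis lists lie near 0 with few filled points, while the sperm markers lie mostly above 1.

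Markers of the germ line and its products, and separately yolk protein genes, were measured on the same arrays. Of 42 measured sperm genes, 30 of them major sperm protein genes, 40 were higher and 0 lower, with medians of 3.22, 2.57 and 2.88 on preps 1, 2 and 3. *msp-56* (4.19 ± 0.51, SD, n = 3) and *smz-2* (3.78 ± 0.05) had the lowest p. Members of these families have near-identical copies, so that 1 signal may be counted under several genes. Of 18 measured germ line regulators, 6 were higher and 2 lower, with medians of 0.55, 0.35 and 0.23. The helicase genes *glh-1* (2.16 ± 0.34) and *glh-2* (1.93 ± 0.34) had the lowest p in limma. Of the 18 means, 12 were above 0 and 6 below, down to -1.25, and 10 genes did not pass. Among all genes tested, 12.0% were called higher and 10.8% lower. Of 14 oocyte and eggshell genes, 6 were lower and 1 higher, with medians of -0.50, -0.31 and -1.44. The eggshell gene *cpg-3* was at -2.01 ± 0.41, and the higher gene was *pqn-74* (3.03 ± 0.37), whose link to the eggshell is unsure. Of 3 measured yolk protein genes, 1 was lower and 0 higher. *vit-2* had -0.68, -0.28 and -3.28, a mean of -1.41 that became -0.48 without prep 3 and then did not pass (limma, adjusted p = 0.338), and *vit-6* had 0.64, -0.01 and -0.04. *syp-1* was highest on prep 3, where the oocyte median was lowest, and lowest on prep 1, where the sperm and germ line medians were highest. *him-5* was lowest on prep 2, where the sperm median was lowest and the oocyte median highest. The median of all genes was also lowest on prep 2, with 0.01, -0.10 and -0.06 on preps 1, 2 and 3. The part of these markers in the ratios of *syp-1* and *him-5* was not tested.

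**Figure D5:**
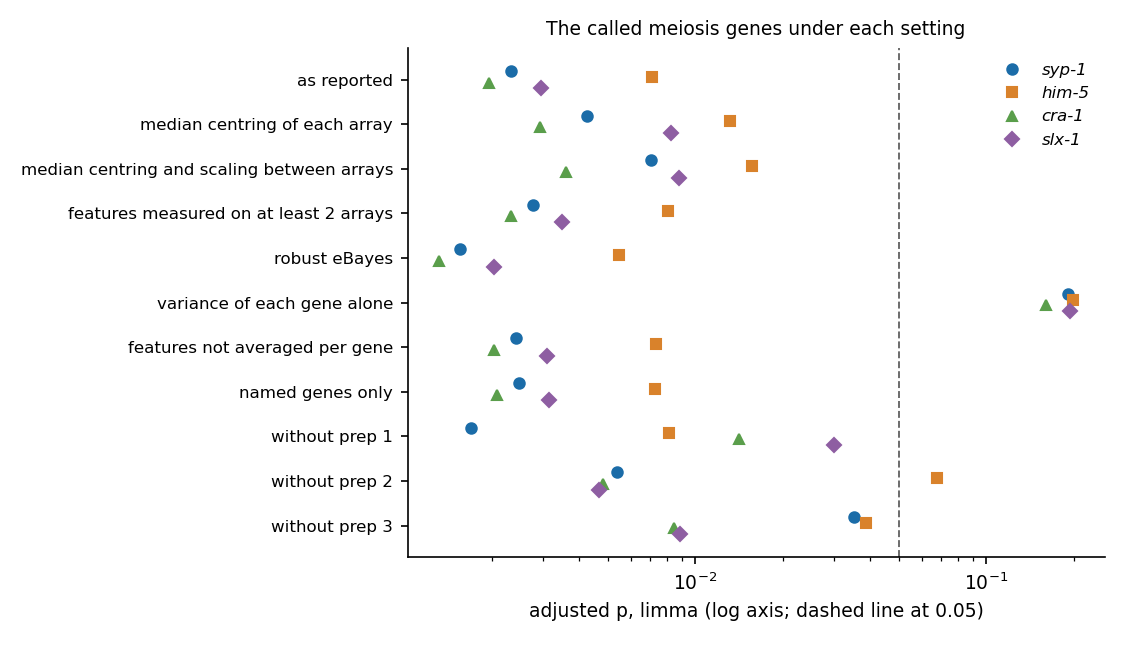
Adjusted p in limma (horizontal log axis) of the 4 called meiosis genes as reported and under each alternative setting (rows), with 0.05 as a dashed line. *syp-1*, *cra-1* and *slx-1* crossed the line with each gene's own variance alone, and *him-5* also without prep 2.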

How the data were processed

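The authors deposited 1 log2 value per feature for each of 3 two-colour arrays. They were taken as log2 of ratios rounded to steps of 0.001, since 2 to the power of the value fell on a step (tolerance 0.05 of a step) in 100% of cases. The sources used here do not give the dyes, background correction, normalization or probe type. The arrays' medians were 0.01, -0.10 and -0.06, and values were used as deposited. Features were named from the platform annotation, with symbols updated by Entrez ID in a RefSeq table (WBcel235). Of 20000 features, 15655 had 1 gene symbol, 198 several and 4147 none, and 19736 had values on all 3 arrays. Averaging per gene and array left 15112 named genes and 4180 unnamed features, together called genes. Using limma 3.58.1 in R 4.3.3, the mean of each gene was compared with 0 in a two-sided moderated test (lmFit, eBayes) with Benjamini-Hochberg adjustment. The fit had 2 residual and 12.8 prior degrees of freedom. Signal over background is unknown, and the reference's own spread is left out. On simulated data for 19292 genes, limma called 22 of 100 genes changed 2-fold, 98 of 100 changed 4-fold and 7 of 19092 unchanged ones. Far fewer genes were changed there than the 4414 called in the data, so the Benjamini-Hochberg cut-off was stricter in the simulation. Its shares therefore do not give the share of 2-fold changes missed in the data. Members, lists and the rule for named genes (the 10 genes, all measured same-role genes, called crossover genes and the 2 lowest p of each marker list) were chosen with earlier results of these data known. Alternatives were median centring, centring with scaling, values on at least 2 arrays, robust eBayes, unmoderated variance, features not averaged, named genes only, an adjusted p under 0.01 and leaving out each prep.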

Additional observations from a re-analysis of the deposited data

How the results depend on the processing

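No paired analysis was possible because there is 1 group of arrays and nothing to pair it with. Without moderation of the variance, which leaves 2 degrees of freedom, limma called 0 genes, so that every count of called genes, in the axis and synapsis, crossover, germ line, sperm, oocyte and yolk lists, was 0. At an unadjusted p under 0.05 this variance gave 1874 higher and 2340 lower genes in all, and among the axis and synapsis genes 1 higher, *syp-1*, and 1 lower, *him-5*. The call of *him-5* was otherwise lost only without prep 2, so the count of lower axis and synapsis genes ranged from 0 to 1 when 1 prep was left out. Lower genes among all tested numbered 1217 at an adjusted p under 0.01 and 1337 to 1776 with 1 prep left out, and lower germ line markers 1 in each of these. Lower yolk genes numbered 0 under median centring, centring with scaling, robust eBayes and an adjusted p under 0.01, and 0 to 1 with 1 prep left out. Some means near 0 of uncalled genes changed sign when 1 prep was left out, with ranges from -0.37 to 0.18 for *htp-1*, -0.23 to 0.29 for *htp-3*, -0.07 to 0.09 for *scc-3*, -0.23 to 0.20 for *wapl-1*, -0.08 to 0.23 for *syp-6*, -0.28 to 0.03 for *skr-2*, -0.11 to 0.17 for *zim-2*, -0.11 to 0.09 for *sun-1*, -0.12 to 0.35 for *dsb-3*, -0.07 to 0.23 for *rad-50* and -0.02 to 0.32 for *vit-6*. *zim-2* was at 0.05 under median centring and 0.04 with scaling. The difference *htp-1* minus *htp-3*, -0.14 over the 3 preps, became 0.40 without prep 1 and -0.66 without prep 3. Where no construction of an alternative shows it, the cause was not tested. Spot intensities were not analysed here, so dim spots could not be told from bright ones.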
